A study of Mus musculus with 8 samples.

Results

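Cytosolic ribosomal protein genes were described in single-cell RNA sequencing of mouse liver stromal cells. Members were all rows of the count matrix whose symbol was Rpl or Rps followed by a number, an a, a p or an x, leaving out pseudogenes marked -ps and the Rps6k kinases, with at least 100 UMIs over the cells kept. The rule took 83 of 31053 rows, 49 named Rpl for the large subunit and 34 named Rps for the small subunit. Of the 86 symbols that matched, 3 fell below the minimum, namely Rpl10l with 1 UMI and Rpl39l and Rpl3l with 2 UMIs each. Rps19bp1, which encodes a protein that binds Rps19, and Rpl7l1, a relative of Rpl7, matched by symbol and stayed in, whereas Fau and Rack1 encode ribosomal proteins under other names and were followed separately.

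The study compared 4 mice on an HFHC diet with 4 mice on a control diet, 1 10x Genomics library per mouse, called here HFHC 1 to 4 and control 1 to 4. HFHC stands for high fat with high cholesterol in the design text and with high calorie in the sample titles, and the mouse called HFHC 4 has the number 14 in its title. All mice are given as male C57BL/6, with an age of 6 to 8 weeks and a diet of 20 to 32 weeks, so this age cannot be the one at the end of the diet. Live liver cells were sorted towards endothelial populations on PDPN, CD146, CD31 and CD45.

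Within HFHC 1 to 3 and control 1 and 2, pairs of libraries shared 33 to 65 cell barcodes, against 0 to 4 in all other pairs. A shared barcode was counted once, in its library of most UMIs, which removed 224 of 3416 cells and left 3192. The libraries then held 47 to 875 cells and 170448 to 2309209 UMIs. Xist was found in 67 of 94 cells of control 4 (71.3%) and in 0 cells of each of the other 7 libraries, and control 4 had 0 UMIs of 4 Y-linked genes against 18 to 284 elsewhere, which goes against its label as male. Cells took the name of a class, as in LSEC-like for liver sinusoidal endothelial cells, from at least 3 detected markers of that class, and no ribosomal protein gene was a marker. The gate placed 1225 cells as LSEC-like, with a median of 12 of 15 markers, and 1172 as hepatocyte-like, while 436 stayed without a class. Classes were unevenly spread over the libraries: HFHC 3 and control 2 gave 628 and 539 of the hepatocyte-like cells, and HFHC 4 and control 3 gave 544 and 556 of the LSEC-like cells.

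Cytosolic ribosomes are built from ribosomal RNA and proteins of a small subunit, which reads the mRNA, and a large subunit, which joins the amino acids. Most ribosomal protein mRNAs start with a run of pyrimidines, the TOP motif, through which mTOR signalling controls their translation as a group. Several members have a paralogue encoded elsewhere in the genome, and tissues can differ in which copy they use.

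The genes of the small-subunit protein eS27 and of the large-subunit protein eL42 come as pairs of paralogues that took different shares in different classes, so the start of their coding sequences is shown. Each sequence is the first 60 bases of the coding sequence in the GENCODE vM21 annotation of GRCm38 (mm10), and capitals mark the bases that differ within the pair.
Rps27: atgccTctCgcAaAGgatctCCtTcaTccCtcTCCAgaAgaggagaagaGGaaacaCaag
Rps27l: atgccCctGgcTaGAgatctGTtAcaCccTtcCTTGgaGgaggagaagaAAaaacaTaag
Rpl36a: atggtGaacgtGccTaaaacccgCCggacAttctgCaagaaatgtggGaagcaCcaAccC
Rpl36al: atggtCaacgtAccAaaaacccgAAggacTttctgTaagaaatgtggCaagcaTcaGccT
Rps27 (chr3:90212522-90213651, minus strand) and Rps27l (chr9:66946086-66949516, plus strand) both have 255 coding bases, of which 194 are identical (76.1%) and 61 differ, 18 of them in the stretch shown. Rpl36a (chrX:134585654-134588062) and Rpl36al (chr12:69182731-69184083) both have 321 coding bases and differ at 39, 11 of them in the stretch shown (87.9% identical). Rps27rt (chr9:114982366-114982739, minus strand) is another eS27 gene, and its 255 coding bases are identical to those of Rps27.

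The 3 eS27 genes also differ at their starts. Shown are 40 bases before and 30 bases from the transcription start in RefSeq (GRCm38.p6), with capitals for the stretch shared by Rps27 and Rps27rt.
Rps27: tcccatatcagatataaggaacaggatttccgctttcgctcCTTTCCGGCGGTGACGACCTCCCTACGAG
Rps27rt: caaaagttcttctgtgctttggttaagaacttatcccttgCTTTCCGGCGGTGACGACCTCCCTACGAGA
Rps27l: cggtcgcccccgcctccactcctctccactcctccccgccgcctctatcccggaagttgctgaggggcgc
The windows lie at chr3:90213619-90213688 (minus strand), chr9:114982710-114982779 (minus strand) and chr9:66946046-66946115 (plus strand). The shared stretch starts with a run of pyrimidines at base 2 of the Rps27 transcript and at base 1 of the Rps27rt transcript. Reads from the 2 transcripts can thus hardly be told apart: of the 90-base words in the last 400 bases of the Rps27rt transcripts 89.8% also occur in Rps27, and 45.2% of those of Rps27 occur in another row. By the same count 85.8% of the words of Rpl10 occur in the row Rpl10-ps3, 67.9% of those of Rpl36al and 61.7% of those of Rpl36a occur in other rows, and Rps2 reaches 26.9%. In all, 20 members shared over 10% of these words with another row and their levels are uncertain to that extent, whereas Rps27l, Rpl39, Rps15a and Rps9 shared 0% with other rows. Counting all annotated genes, in the matrix or not, 63 members shared over 10%, among them Rpl36a with 100%, Rps15a with 18.9% and Rps9 with 14.1%.

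Over all kept cells, Rpl41, which encodes the smallest ribosomal protein, gave most UMIs among the members, 35211 or 3.18% of all ribosomal protein UMIs. It was followed by Rps29 with 2.86%, Rps27 with 2.40%, Rpl37a with 2.36%, Rpl13 with 1.97% and Rps14 with 1.86% of these UMIs. The fewest UMIs came from Rps19bp1 (503 UMIs, 0.0455%) and Rpl7l1 (610 UMIs, 0.0552%), the 2 members that encode no core subunit protein. Next lowest were Rpl5 with 0.374%, Rpl22l1 with 0.424%, Rpl12 with 0.456% and Rps27l with 0.494%. These are shares of UMIs that are not divided by transcript length, so they give the weight of each gene in the counts and not an order of expression per length. The 10 most abundant members held 21.9% of the ribosomal protein UMIs, so no small group of genes made up the total.

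Summed over all cells of a library, ribosomal protein genes took 12.1%, 9.58%, 15.6% and 22.9% of UMIs in HFHC 1 to 4, against 12.5%, 14.2%, 14.4% and 14.8% in control 1 to 4. HFHC 3 and 4 were above and HFHC 1 and 2 below every control library. The mean was 15.0% ± 5.77 with HFHC diet and 14.0% ± 1.04 with control diet (SD, n = 4 each), a difference of 1.05 points that an exact two-sided permutation test over 70 assignments did not separate (p = 0.8, smallest possible 0.0286). Without control 4 the difference was 1.34 points (exact permutation p = 0.857). Within the 5 libraries that share barcodes it was -0.929 points, and within the other 3 libraries, with 1 HFHC mouse, 8.25 points. In such sums a different mix of cells and a different level within cells cannot be told apart.

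Gene by gene in these sums, 71 of 83 members were higher with HFHC diet, with a median log2 fold change of 0.13 against 0.01 over all genes, and 0 members passed an adjusted p of 0.05 in edgeR's quasi-likelihood test with Benjamini-Hochberg adjustment (0% of 6666 genes called). At an unadjusted p under 0.05 edgeR held 0 members and 52 genes, and DESeq2 called 0 members. The direction rested on single libraries: 28 members were higher without HFHC 3 (median -0.04), 37 without HFHC 4 (median -0.03) and 4 within the 5 barcode-sharing libraries (median -0.21), against 81 within the other 3 (median 0.72). The members with the smallest unadjusted p were Rpl22l1 at a log2 fold change of 0.54 (SE 0.36), Rpl10a at 0.29 and Rpl38 at 0.32, and, below 0, Rps27rt at -0.23 (SE 0.38), Rpl8 at -0.20 and Rpl9 at -0.15. All of these had an adjusted p of 1.00 in edgeR.

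**Figure D1:**
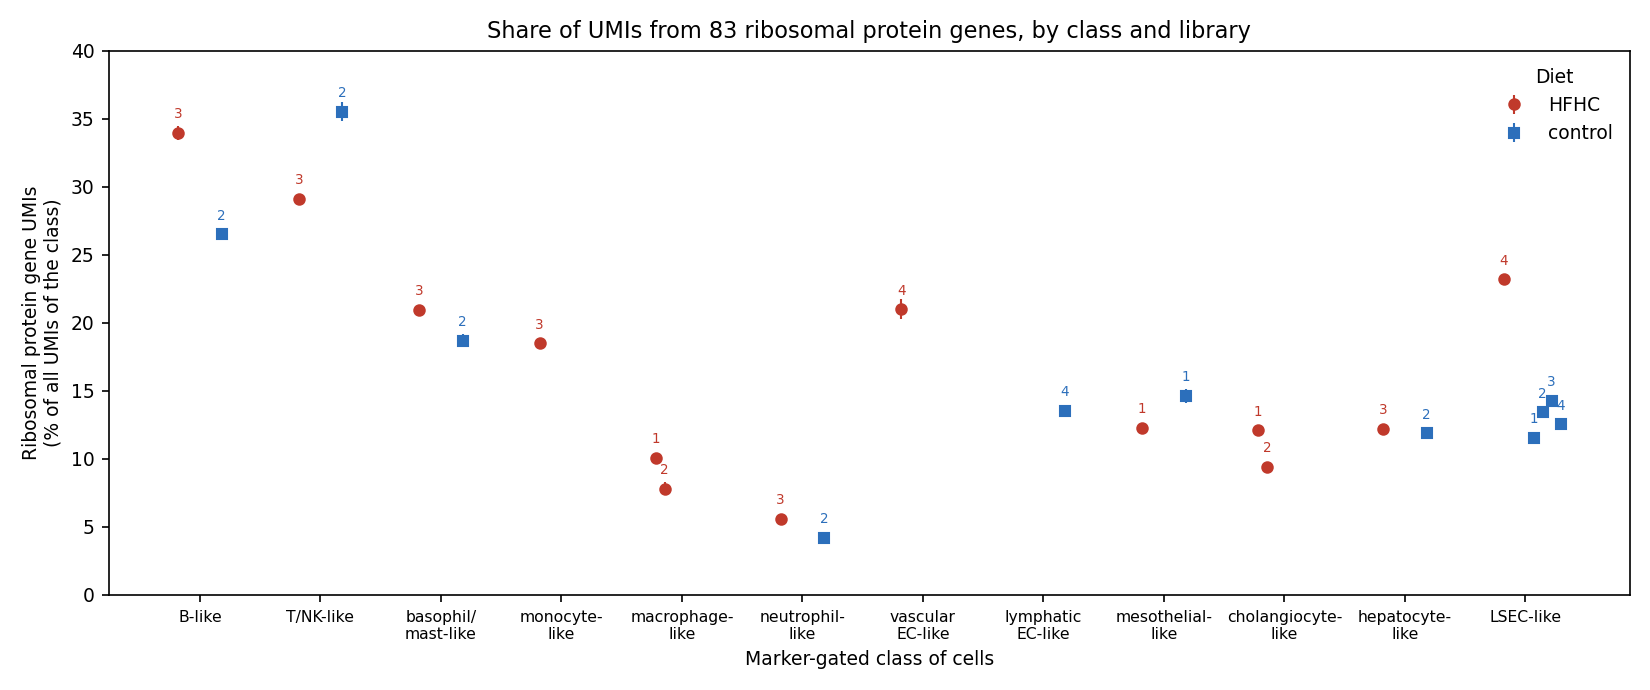
Percent of UMIs from the 83 ribosomal protein genes (y axis) for each marker-gated class with at least 5 cells in a library (x axis); each point is 1 library, its number the replicate, red for HFHC and blue for control, with a Wilson 95% interval for counting error. B-like and T/NK-like cells lie highest, neutrophil-like cells lowest, and the LSEC-like cells of HFHC 4 (23.2%) lie above those of the 4 control libraries (11.5% to 14.3%).

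Among LSEC-like cells, which line the liver sinusoids and filter the blood, ribosomal protein genes took 23.2% of UMIs in HFHC 4 (Wilson 95% interval 23.1% to 23.3%, 544 cells). The same class held 11.5% in control 1 (20 cells), 13.4% in control 2 (60 cells), 14.3% in control 3 (556 cells) and 12.5% in control 4 (39 cells), a mean of 12.9% ± 1.17 (SD, n = 4). HFHC 4 was thus 10.3 points above the control mean, and 10.1 points above it without control 4, with no test, since no other HFHC library had 10 or more LSEC-like cells. The interval covers counting error only and holds no spread among mice. In HFHC 1 and HFHC 3, with 3 LSEC-like cells each, the share was 14.9% and 23.8%. With these included the difference was 7.68 points, and the exact two-sided permutation p was 0.0571, the smallest that 3 against 4 libraries allow.

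Depth and free RNA were measured beside this difference. Thinned to 1000 UMIs per cell, LSEC-like cells of HFHC 4 held 22.4% (399 cells), against 9.43%, 13%, 14.2% and 12.6% in control 1 to 4 (14, 52, 387 and 34 cells), with HFHC 4 above each control. At matched depth the median per cell in HFHC 4 was 18.1% under 1000 UMIs, 19.5% at 1000 to 2000 UMIs and 23.1% at 2000 to 4000 UMIs, against 12.4%, 13.6% and 14.9% in control 3. In HFHC 4 the share and the UMIs of a cell correlated at Spearman's rho 0.45 over 544 cells of 1 library, and in control 3 at 0.19, a description in which both measures share the cell's total. Mitochondrially encoded genes took 2.71% of LSEC-like UMIs in HFHC 4, against 5.18%, 8.26%, 2.57% and 3.56% in control 1 to 4. Hepatocyte markers took 0.00850% in HFHC 4, against 0.0213%, 0.164%, 0.0141% and 0.0136%, and the part of either in the difference was not tested. Among other cells, those without a class held 20.6% in HFHC 4 (61 cells), against 12.7%, 15.2%, 19.0% and 15.3% in control 1 to 4, and vascular endothelial-like cells of HFHC 4 held 21.0% (10 cells). Cells without a class may be of several kinds.

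**Figure D2:**
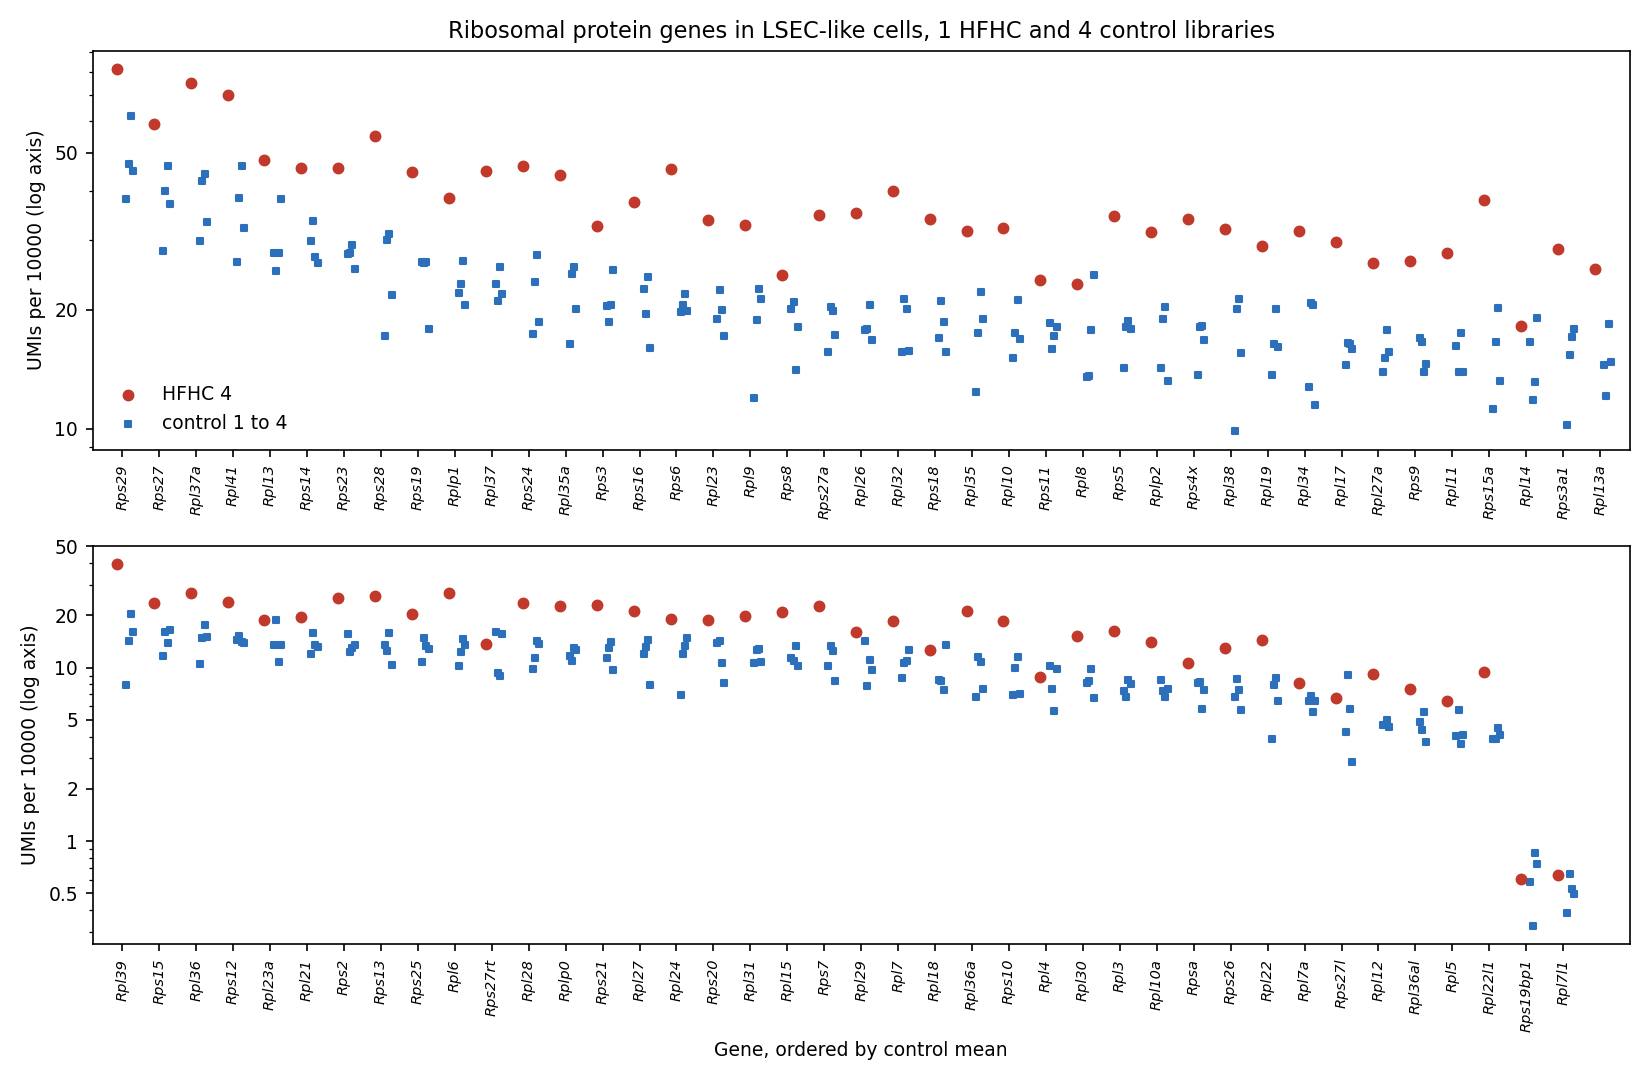
UMIs per 10000 UMIs (log axis) of 81 of the ribosomal protein genes in LSEC-like cells (y axis), with the genes ordered by the control mean along the x axis in 2 panels; red circles are HFHC 4 and blue squares control 1 to 4. The circles lie above all 4 squares for 73 genes, with Rps19bp1, Rpl7l1, Rps27l, Rps27rt, Rpl4, Rpl14, Rpl18 and Rpl8 as the exceptions.

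The difference ran through nearly the whole set of genes. In LSEC-like cells, 75 of the 83 members were higher in HFHC 4 than in all 4 control libraries (10.8% of 3277 genes were), and 0 were lower than all 4. The ratio of HFHC 4 to the control mean had a median of 1.82 and lay between 0.970 for Rps19bp1 and 2.72 for Rpl39. The edgeR fit of LSEC-like cells takes its spread from the 4 controls and assumes that HFHC mice vary as they do, so its p-values set 1 library against those controls and hold no spread among HFHC mice. All 82 members that passed the filter on low counts had a positive log2 fold change, with a median of 0.98 against -0.08 over all genes tested, and 3 of them were called higher and 0 lower by edgeR's quasi-likelihood test (0.214% and 0.153% of genes called). At an unadjusted p under 0.05 edgeR held 68 members of 203 genes, all higher.

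Rpl39, a large-subunit protein of the tunnel through which the new peptide leaves, had 39.7 UMIs per 10000 in LSEC-like cells of HFHC 4, against 7.92, 14.3, 20.2 and 16.0 in control 1 to 4. Its log2 fold change was 1.56 (SE 0.34, adjusted p = 0.00262, edgeR quasi-likelihood test). Rps15a, a protein of the small subunit, had 37.9 UMIs per 10000 in HFHC 4, against 11.2, 16.6, 20.2 and 13.2. It rose by 1.42 on the log2 scale (SE 0.34, adjusted p = 0.0125 in edgeR). Rpl36a had 21.3 UMIs per 10000 in HFHC 4, against 6.76, 11.5, 10.8 and 7.52, and a log2 fold change of 1.32 (SE 0.34, adjusted p = 0.0308 in edgeR). In each case HFHC 4 stood above every control and control 1 was lowest. None of the 3 calls held when control 1, control 2 or control 4 was left out: Rpl39 then had an adjusted p of 0.15, 0.117 and 0.0571, Rps15a of 0.18, 0.182 and 0.242, and Rpl36a of 0.262, 0.182 and 0.358 in edgeR. DESeq2 called 56 members higher (1.8% of genes called).

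Other members stood above all 4 controls in HFHC 4 without passing the threshold, at lower ratios to the control mean than Rpl39, Rps15a and Rpl36a. Rps6, the small-subunit protein phosphorylated by S6 kinase, had 45.5 UMIs per 10000 in LSEC-like cells of HFHC 4, against 19.7, 20.6, 21.9 and 19.9 in control 1 to 4, control values that lie within a narrow range. Rpl22l1, the paralogue of Rpl22, had 9.47 against 3.87, 3.87, 4.51 and 4.07 (log2 fold change 1.33, SE 0.37, adjusted p = 0.0689 in edgeR), and Rpl22 itself had 14.5 against 3.87, 7.90, 8.67 and 6.41. The stalk genes, whose proteins recruit elongation factors to the ribosome, were also above all 4 controls. Rplp0 had 22.5 UMIs per 10000 in HFHC 4 against 11.6, 10.97, 12.9 and 12.7, Rplp1 had 38.3 against 22.03, 23.3, 26.7 and 20.6, and Rplp2 had 31.4 against 14.3, 19.0, 20.4 and 13.2. Their log2 fold changes were 1.03, 0.85 and 1.02, with adjusted p of 0.168, 0.458 and 0.171 in edgeR.

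Of the 4 X-linked members, Rpl39 and Rpl36a were called and Rps4x and Rpl10 were not. Rps4x, a small-subunit protein, had 34.0 UMIs per 10000 in LSEC-like cells of HFHC 4, against 13.7, 18.1, 18.3 and 16.8 in control 1 to 4, and a log2 fold change of 1.15 (adjusted p = 0.102 in edgeR). Rpl10, a large-subunit protein needed for the subunits to join, had 32.2 against 15.1, 17.5, 21.2 and 16.9, and a log2 fold change of 0.99 (adjusted p = 0.209 in edgeR). Together the X-linked members took 5.48% of ribosomal protein UMIs in HFHC 4, against 3.77%, 4.57%, 4.95% and 4.56%. The control library with Xist, control 4, lay between the other controls.

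The 8 members that were not above every control had 1 or more control libraries at or past the level of HFHC 4. Rps27rt had 13.6 UMIs per 10000 in LSEC-like cells of HFHC 4, against 16.0, 9.28, 8.88 and 15.5 in control 1 to 4, so it lay within their range. Rps27l had 6.65 against 4.25, 9.03, 5.74 and 2.84, whereas Rps27 had 59.0 against 28.2, 40.005, 46.3 and 37.0 and stood above them all. Rpl14, Rpl18 and Rpl4, all of the large subunit, had 18.2, 12.6 and 8.87 in HFHC 4, each below the control 4 level of 19.1, 13.6 and 9.87. Rps19bp1 had 0.606 in HFHC 4 against 0.580, 0.323, 0.855 and 0.740, and was the only member with a ratio below 1 to the control mean.

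Within the ribosomal protein total of LSEC-like cells, no member was called. With the library size set to the summed ribosomal protein UMIs, 43 of 82 members were higher in HFHC 4, the median log2 fold change was 0.02, and edgeR called 0 members in either direction (0.061% of genes called higher, 5.74% lower). At an unadjusted p under 0.05 edgeR held 0 members, and DESeq2 called 0. The median over all genes on this scale was -1.02, since the scale takes the ribosomal protein genes as its fixed point. With 1 HFHC library, the lack of calls does not show that each member kept its share. Rpl39 took 1.71% of ribosomal protein UMIs in HFHC 4, against 0.687%, 1.06%, 1.42% and 1.28% in control 1 to 4. In edgeR on this relative scale its log2 fold change was 0.60 (SE 0.33), that of Rps15a 0.47 and that of Rpl36a 0.37. Below 0 lay, among others, Rps19bp1 at -0.90 (SE 0.83), Rpl4 at -0.73 (SE 0.38), Rps27rt at -0.71 (SE 0.37) and Rpl14 at -0.59.

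Genes that work with the ribosome were followed in lists of their own, and the difference between these lists and the members was not tested. In LSEC-like cells Fau and Rack1, ribosomal protein genes outside the symbol rule, had log2 fold changes of 0.95 (adjusted p = 0.27) and 0.89 (adjusted p = 0.563) in HFHC 4, and neither was called in edgeR. Of 19 other genes with TOP mRNAs, 18 were higher with a median log2 fold change of 0.77. Of 7 elongation factor genes 5 were higher with a median of 0.72. Counted among these, here and below, is Tpt1, whose product is not itself an elongation factor. Initiation factor genes were higher for 25 of 30 (median 0.23), ribosome biogenesis genes for 10 of 14 (median 0.29) and genes of the mitochondrial ribosome, a separate machine encoded in the nucleus, for 29 of 44 (median 0.15). Over all genes 1469 of 3277 were higher. In these 5 lists edgeR called 0 genes, and at an unadjusted p under 0.05 it held 9 of the TOP genes, 3 elongation factor genes, 1 initiation factor gene, and 0 biogenesis or mitochondrial ribosome genes. Mitochondrial ribosome genes took 0.675% of UMIs in HFHC 4, within the 0.553% to 0.693% of the controls.

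The share of ribosomal protein genes also differed between cell classes. In HFHC 3 and control 2, the libraries with most immune cells, B-like cells gave 34.0% (15 cells) and 26.5% (33 cells) of their UMIs to ribosomal protein genes, and T/NK-like cells 29.1% (56 cells) and 35.5% (6 cells). Basophil- or mast-like cells gave 21.0% (23 cells) and 18.7% (11 cells), and neutrophil-like cells 5.60% (16 cells) and 4.21% (6 cells), while hepatocyte-like cells gave 12.2% (628 cells) and 11.9% (539 cells). In both libraries B-like, T/NK-like and basophil- or mast-like cells were above and neutrophil-like cells below hepatocyte-like cells, but which of B-like and T/NK-like cells was highest differed between the libraries. In other libraries, macrophage-like cells of HFHC 1 and HFHC 2 gave 10.1% and 7.80%, cholangiocyte-like cells of the same libraries 12.1% and 9.43%, and monocyte-like cells of HFHC 3 gave 18.5%. Lymphatic endothelial-like cells of control 4 gave 13.5% (29 cells), 1.01 points above the LSEC-like cells of that library. In control 2, B-like cells stood 13.1 points and basophil- or mast-like cells 5.27 points above, and hepatocyte-like cells 1.55 points below, the LSEC-like cells. With 1 library each, these last differences have no test.

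Counts were summed per class in HFHC 3 and control 2 and the 4 immune classes were each compared with the same hepatocyte-like cells, 2 libraries a side with library as a factor. Because they share those hepatocyte-like sums, the 4 comparisons are not independent of each other. Of 81 members tested, edgeR's quasi-likelihood test called 77 higher and 1 lower in B-like cells (35.9% and 30.4% of 1331 genes called) and 76 higher and 1 lower in T/NK-like cells (36.4% and 29.5%). In basophil- or mast-like cells it called 45 higher and 5 lower (35.2% and 34.6%), and in neutrophil-like cells 3 higher and 58 lower (25.7% and 31.5%). The members' median log2 fold change was 1.82, 1.83, 0.81 and -1.35 in B-like, T/NK-like, basophil- or mast-like and neutrophil-like cells, against 0.05, 0.11, -0.08 and -1.02 over all genes. With DESeq2 size factors the medians over all genes moved to -0.70, -0.64, -0.72 and -1.43, and the members' calls to 59 higher and 2 lower, 59 and 2, 13 and 7, and 3 and 65. The members' own medians were then 1.07, 1.05, 0.16 and -1.76. Of all 1331 genes, 378 were then called higher and 546 lower, 380 and 550, 371 and 561, and 314 and 538. Without the filter on low counts the medians over all genes were -1.17, -0.96, -1.44 and -2.47 and those of the members 0.10, 0.20, -0.66 and -3.47. In B-like cells 3 members were then called higher and 3 lower (573 and 1439 of 13872 genes), and in T/NK-like cells 2 and 4 (736 and 1415). Basophil- or mast-like cells had 1 and 12 (651 and 1442), and neutrophil-like cells 0 and 80 (319 and 1213). The sign of the members' median in basophil- or mast-like cells thus turned without the filter, and most calls of higher members were lost. In both libraries the UMI share of basophil- or mast-like cells, taken without a filter, was still above that of hepatocyte-like cells. With library sizes from the other genes and the filter kept, the members' medians were 1.64, 1.79, 0.74 and -1.79. Relative to all genes the members' median stayed above in B-like, T/NK-like and basophil- or mast-like cells and below in neutrophil-like cells.

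Free RNA, depth and RNA quality differed between these sums as well. Hepatocyte markers took 0.107% to 0.339% of UMIs in the 4 immune classes, against 3.52% in hepatocyte-like cells of HFHC 3 and 4.04% in those of control 2. Mitochondrially encoded genes took 0.477% to 7.99% in the immune classes, against 0.0989% in hepatocyte-like cells of HFHC 3 and 4.73% in those of control 2. The part of either in the comparisons was not tested. The median cell of HFHC 3 and control 2 held 2204 and 1916 UMIs in B-like, 2415 and 2723 in T/NK-like, 2451 and 2655 in basophil- or mast-like and 932 and 1319 in neutrophil-like cells, against 1967 and 970 in hepatocyte-like cells.

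**Figure D3:**
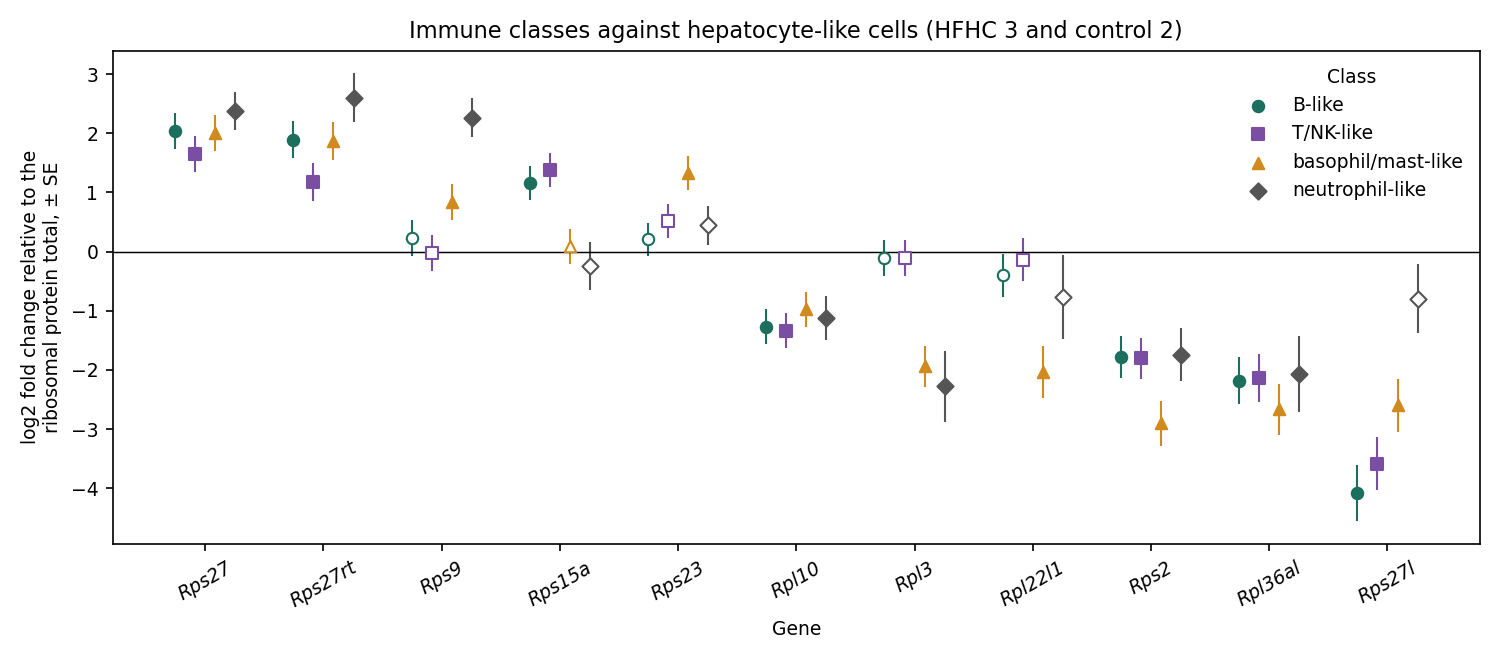
Log2 fold change ± SE relative to the ribosomal protein total (y axis) of 11 members (x axis) in 4 immune classes, each against the same hepatocyte-like cells of HFHC 3 and control 2 (edgeR quasi-likelihood test); filled points have an adjusted p under 0.05, open points do not. Rps27 and Rps27rt lie above 0, and Rps2 and Rpl36al below 0, in all 4 classes.

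The make-up of the ribosomal protein mRNAs differed too. Relative to the ribosomal protein total, where 0 means that a gene kept its share among the members, edgeR called 5 of 81 members higher and 10 lower in B-like cells (17.1% and 51.2% of genes called), 5 and 11 in T/NK-like cells (17.9% and 51.5%), 9 and 13 in basophil- or mast-like cells (25.6% and 44.7%), and 10 and 18 in neutrophil-like cells (29.2% and 11.3%). Most members were thus not called apart from the total. Over pooled classes, among the 21 members with at least 20 UMIs in each of 13 classes, the share of ribosomal protein UMIs varied most for Rps2, with 0.449% in basophil- or mast-like and 3.20% in hepatocyte-like cells, a ratio of 7.11. Next came Rps27rt (ratio 7.05), Rps27 (5.92), Rps9 (5.24), Rps27a (3.05) and Rps23 (2.67). These members were chosen for their variation, so the ratios are a description.

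Rps27, with a zinc finger at the surface of the small subunit, was called higher in all 4 immune classes. It took 5.07% of ribosomal protein UMIs in B-like cells of HFHC 3 and 5.01% in those of control 2, 4.11% and 3.62% in T/NK-like cells, 5.14% and 4.77% in basophil- or mast-like cells and 8.18% and 4.55% in neutrophil-like cells, against 1.18% and 1.26% in hepatocyte-like cells. Every immune sum was above both hepatocyte-like sums. The relative log2 fold changes were 2.04 in B-like (SE 0.30, adjusted p = 1.59e-06), 1.65 in T/NK-like (SE 0.30, adjusted p = 2.44e-05), 2.01 in basophil- or mast-like (SE 0.30, adjusted p = 2.4e-06) and 2.37 in neutrophil-like cells (SE 0.32, adjusted p = 8.69e-07) in edgeR. Its near-identical copy Rps27rt took 0.797% and 1.10% in B-like cells, against 0.227% and 0.284% in hepatocyte-like cells of HFHC 3 and control 2. Rps27rt had relative log2 fold changes of 1.89, 1.18, 1.87 and 2.60 in B-like, T/NK-like, basophil- or mast-like and neutrophil-like cells (adjusted p between 8.36e-06 and 0.0019 in edgeR). Since the reads of both come from nearly the same sequence, the Rps27rt counts are no separate evidence.

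Rps27l, the eS27 paralogue known in human cells as a target of p53, ran the other way in 3 of these classes. It took 0.0839% and 0.0361% of ribosomal protein UMIs in B-like cells of HFHC 3 and control 2 (10 and 6 UMIs), 0.0874% and 0.0633% in T/NK-like cells and 0.117% and 0.233% in basophil- or mast-like cells, against 0.976% in hepatocyte-like cells of each library (1871 and 885 UMIs). The relative log2 fold changes of Rps27l were -4.08 in B-like (SE 0.48, adjusted p = 5.81e-08), -3.58 in T/NK-like (SE 0.45, adjusted p = 1.67e-07) and -2.60 in basophil- or mast-like cells (SE 0.45, adjusted p = 1.33e-05). In neutrophil-like cells, with 4 UMIs in each library, it was -0.80 (SE 0.59, adjusted p = 0.287), all in edgeR. Per 10000 UMIs of all genes, Rps27l had 2.85 and 0.956 in B-like cells, against 11.9 and 11.6 in hepatocyte-like cells, and it was the 1 member called lower in B-like cells on that scale (log2 fold change -2.23, adjusted p = 4.22e-05 in edgeR). Hepatocyte markers took 0.219% and 0.135% of UMIs in these B-like cells, against 3.52% and 4.04% in hepatocyte-like cells, and how far free hepatocyte RNA gave the Rps27l UMIs of B-like cells was not tested.

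**Figure D4:**
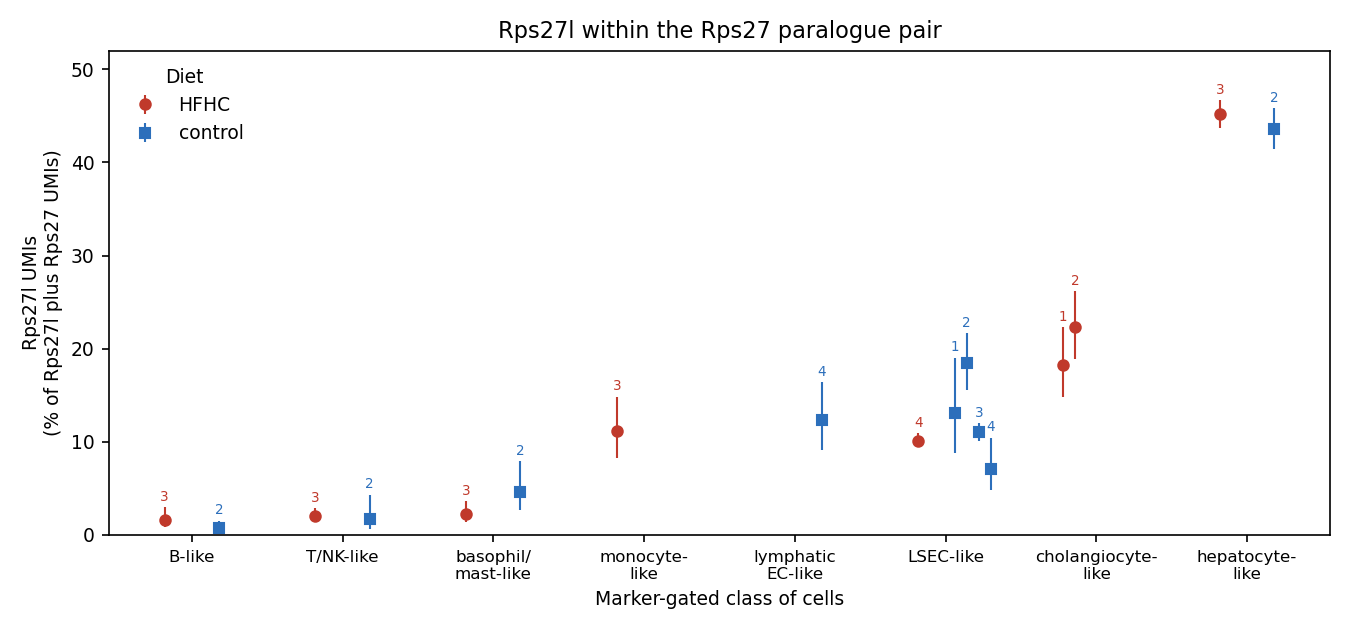
Rps27l UMIs as percent of Rps27l plus Rps27 UMIs (y axis) by marker-gated class (x axis); each point is 1 library, red for HFHC and blue for control, with a Wilson 95% interval. The share is at most 2.08% in B-like and T/NK-like cells, 18.3% and 22.3% in cholangiocyte-like cells, and 45.2% and 43.6% in hepatocyte-like cells. Macrophage-like, neutrophil-like and vascular endothelial-like cells are not drawn.

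Set against each other within a class, the 2 UMI counts gave a share that does not depend on the total. Rps27l made up 1.63% of Rps27l plus Rps27 UMIs in B-like cells of HFHC 3 (Wilson 95% interval 0.886% to 2.97%) and 0.714% in those of control 2 (0.328% to 1.55%). It made up 2.08% and 1.72% in T/NK-like cells and 2.22% and 4.65% in basophil- or mast-like cells, against 45.2% (43.7% to 46.7%) and 43.6% (41.5% to 45.8%) in hepatocyte-like cells. Between these lay cholangiocyte-like cells with 18.3% in HFHC 1 and 22.3% in HFHC 2. Monocyte-like cells had 11.2% in HFHC 3 and lymphatic endothelial-like cells 12.3% in control 4. Macrophage-like cells of HFHC 1 had 19.7% (10 cells) and vascular endothelial-like cells of HFHC 4 had 12.3% (10 cells). Neutrophil-like cells had 5.19% in HFHC 3 and 13.8% in control 2, with 4 Rps27l UMIs in each. In LSEC-like cells the share of Rps27l was 10.1% in HFHC 4 (9.40% to 10.9%), against 13.1%, 18.4%, 11.03% and 7.12% in control 1 to 4, so HFHC 4 lay within the control range. Rps27rt is not in this share, and adding it would lower each value.

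Rps2, a small-subunit protein at the mRNA entry, was called lower in all 4 immune classes relative to the total. It took 0.922% and 0.914% of ribosomal protein UMIs in B-like cells of HFHC 3 and control 2, 0.886% and 0.933% in T/NK-like cells, 0.482% and 0.368% in basophil- or mast-like cells and 1.57% and 0.182% in neutrophil-like cells, against 3.24% and 3.09% in hepatocyte-like cells. The neutrophil-like shares differed widely between the libraries, and the other classes did not. Those neutrophil-like shares are of only 892 and 550 ribosomal protein UMIs in HFHC 3 and control 2, so they rest on few Rps2 UMIs. Its relative log2 fold changes were -1.78 (SE 0.35, adjusted p = 6.53e-05), -1.81 (adjusted p = 6.03e-05), -2.90 (SE 0.38, adjusted p = 3.45e-07) and -1.74 (SE 0.44, adjusted p = 0.00243) in B-like, T/NK-like, basophil- or mast-like and neutrophil-like cells in edgeR. Over 19 sums of a class in a library, the members whose log2 share was most like that of Rps2 included Rpl36al (Pearson's r 0.82) and Rpl7a (0.66), a description over sums that share libraries.

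Rpl36al, the autosomal copy of the eL42 gene, was also called lower in all 4 immune classes. It took 0.235% and 0.361% of ribosomal protein UMIs in B-like cells of HFHC 3 and control 2, 0.331% and 0.300% in T/NK-like cells and 0.280% and 0.136% in basophil- or mast-like cells, against 1.44% and 1.33% in hepatocyte-like cells. The relative log2 fold changes of Rpl36al were -2.18 (SE 0.40, adjusted p = 2.69e-05), -2.14 (adjusted p = 3.76e-05) and -2.67 (adjusted p = 5.94e-06) in B-like, T/NK-like and basophil- or mast-like cells in edgeR. Neutrophil-like cells had 5 Rpl36al UMIs in HFHC 3, or 3.14 per 10000 UMIs of all genes, and 0 in control 2, where a count of 0 allows up to 2.30 per 10000. The X-linked copy Rpl36a took 0.629% and 0.763% in B-like cells and 0.640% and 0.901% in T/NK-like cells, against 0.891% and 0.929% in hepatocyte-like cells. Among the copies, the autosomal one thus gave more UMIs in hepatocyte-like cells and fewer in B-like and T/NK-like cells, in both libraries. Of another pair, Rpl22l1 took 0.327% and 0.361% and Rpl22 0.478% and 0.439% in B-like cells, against 0.535% and 0.397% for Rpl22l1 and 0.479% and 0.502% for Rpl22 in hepatocyte-like cells. Rpl22 was the higher copy in B-like cells of both libraries, and in hepatocyte-like cells the order differed between the libraries.

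Further members differed in some of the classes. Rpl10 was called lower in all 4, with relative log2 fold changes of -1.27, -1.34, -0.97 and -1.13 in B-like, T/NK-like, basophil- or mast-like and neutrophil-like cells (adjusted p between 0.000262 and 0.0171 in edgeR). Without the filter on low counts the Rpl10 calls were lost in basophil- or mast-like and neutrophil-like cells. Rps15a took 2.13% and 1.95% of ribosomal protein UMIs in B-like cells of HFHC 3 and control 2 and 2.52% and 2.23% in T/NK-like cells, against 0.936% and 0.890% in hepatocyte-like cells. Its relative log2 fold change was 1.16 in B-like (adjusted p = 0.000883), 1.38 in T/NK-like (adjusted p = 0.000142), 0.09 in basophil- or mast-like (adjusted p = 0.824) and -0.24 in neutrophil-like cells (adjusted p = 0.676) in edgeR, and the difference between these classes was not tested.

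Basophil- or mast-like cells had a higher share of Rps23, a small-subunit protein of the decoding centre, and a lower one of Rpl3, a large-subunit protein near the peptidyl transferase centre. Rps23 took 3.59% and 3.96% of ribosomal protein UMIs in basophil- or mast-like cells of HFHC 3 and control 2, against 1.41% and 1.58% in hepatocyte-like cells (relative log2 fold change 1.33, adjusted p = 0.000189 in edgeR). Rpl3 took 0.311% and 0.194%, against 1.02% and 0.995% (-1.94, SE 0.35, adjusted p = 2e-05 in edgeR). Rpl22l1 fell by 2.03 on the relative log2 scale (SE 0.44, adjusted p = 0.000235 in edgeR) and Rpl7a by 1.51.

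Neutrophil-like cells had a higher share of Rps9, a small-subunit protein at the mRNA entry, with 7.29% and 4.18% of ribosomal protein UMIs in HFHC 3 and control 2, against 1.21% in hepatocyte-like cells of each (relative log2 fold change 2.26, SE 0.33, adjusted p = 2.43e-06 in edgeR). Rps25 and Rpl37a were called higher at 1.41 and 1.22, and Rps19, a small-subunit protein that is altered in Diamond-Blackfan anaemia, was lower at -1.84 (adjusted p = 0.00226 in edgeR). Rpl3 was lower at -2.28 (SE 0.61, adjusted p = 0.00369 in edgeR) in neutrophil-like as in basophil- or mast-like cells. These sums rest on 16 and 6 cells with 892 and 550 ribosomal protein UMIs, together the least of the 4 classes. Low shares such as that of Rpl3 thus rest on few UMIs. Of the names outside the symbol rule, Fau followed Rps27 and Rps9 here, with a relative log2 fold change of 2.41 (SE 0.30, adjusted p = 2.84e-07 in edgeR).

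Among translation genes outside the set, relative to the ribosomal protein total, Eef1a1, the factor that brings aminoacyl-tRNA to the ribosome, was called lower in B-like (-1.498), T/NK-like (-1.43), basophil- or mast-like (-1.31) and neutrophil-like cells (-1.498), with adjusted p between 5.88e-05 and 0.000772 in edgeR. In B-like cells on that scale 0 of 7 elongation factor genes, counted with Tpt1, were called higher and 4 lower, Tpt1 among the 4. Of 15 initiation factor genes 0 were called higher and 9 lower. Of 13 mitochondrial ribosome genes 0 were called higher and 13 lower, where 51.2% of all genes were called lower. In neutrophil-like cells 3 initiation factor genes were called higher and 0 lower (29.2% and 11.3% of all genes). On the scale of all genes 5 of 7 elongation factor genes, 6 of 15 initiation factor genes and 16 of 18 other TOP genes were called higher in B-like cells and none lower, whereas 0 of 13 mitochondrial ribosome genes were called higher and 3 lower, beside 35.9% of all genes called higher and 30.4% lower. In basophil- or mast-like cells 0 of 7 elongation factor genes were called higher and 1 lower, where 35.2% and 34.6% of all genes were. Their median log2 fold change there was -0.09, and 3 of the 7 were above 0. Elongation factor genes went the other way in neutrophil-like cells, with 0 called higher and 6 lower, where 25.7% and 31.5% of all genes were.

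RefSeq gave a promoter for 63 of the 83 members, from 250 bases before to 50 after the start. The letters CTTTCC or their reverse complement, which occur in the Rps27 start shown above, were found in 34 of them (54.0%), against 29.3% of 27025 genes and 31.1% of 5648 other genes with at least 100 UMIs. CCGGAAG, the core bound by ETS factors, was found on either strand in 25 (39.7%), against 9.93% and 21.4%, and TATAAA in 7 (11.1%), against 15.7% and 9.42%. A match is a description of the letters and not a site of binding.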

How the data were processed

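The authors deposited raw UMI counts per gene and cell, per the values in the matrix and the labels. Per the submitters' processing notes, Cell Ranger 3.0.1 and Seurat were used with mm10; which release of Seurat or of the gene annotation was used is not given in the sources used here. Deposited cells had 202 genes or more and up to 10% mitochondrial counts. The members and all gene lists were chosen with earlier results of these data known.

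A barcode found in several libraries was kept in the one with most of its UMIs. A cell took a class with at least 3 markers detected, at least 20% of that class's markers, and at least 1.5 times the share of the next class; doublets were not called, so mixed cells can be among those kept. Counts were summed per library, or per class within a library where 10 cells or more were found, and tested with edgeR 4.0.16 (R 4.3.3; TMM, filterByExpr, robust quasi-likelihood test), Benjamini-Hochberg adjustment over all genes tested and a threshold of 0.05. A second fit set the library size to the ribosomal protein UMIs. The SE is the absolute log2 fold change divided by the square root of F. Comparisons of classes with LSEC-like cells could not be fitted, because no class shared 2 libraries with them; immune classes of at least 5 cells against hepatocyte-like cells were chosen after seeing this. Percentages of single libraries were compared by exact permutation (scipy 1.17.1, numpy 2.4.6, pandas 2.3.3, Python 3.11.15), and figures drawn with matplotlib 3.10.9. Each library is 1 mouse.

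Genes were named by a rule: up to 10 per direction with the smallest adjusted p in each comparison, or 3 by unadjusted p where none passed; the 6 most and 6 least abundant members; the 6 that varied most between classes; the stalk, X-linked and paralogue genes; the 3 members most like Rps2; and up to 4 genes of each other list. Some genes that this rule takes are not reported here. Rps6 and Rpl22, and the members not above all controls, were named after their values were seen. Alternatives were DESeq2 1.42.0 (test or size factors), other filters on cells and genes, a gate of 4 markers, other cell minimums, nuclear genes only, means over cells, left-out libraries, a replicate block, no library factor, and the 5 barcode-sharing libraries apart from the other 3. The code was tested on simulated data. In the all-cell sums it found 0% of the genes altered by a factor of 2 and 2% at a factor of 4. At factors of 8 and 32 it found 26% and 68%. The 0 calls in those sums thus cannot exclude moderate changes. For B-like against hepatocyte-like cells it found 16%, 68%, 84% and 94% at these factors, and 18 of 149 calls were false. For LSEC-like cells on the scale of all genes it found 2%, 54%, 74% and 88%. The relative scale was not simulated in LSEC-like cells, and its 0 calls cannot exclude moderate changes either.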

Additional observations from a re-analysis of the deposited data

Results flagged for a closer look

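In 20 groups of 4 libraries a library far from the others was looked for. The groups held the ribosomal protein percent of UMIs, or the level or share of a single member, over all cells or in LSEC-like cells. The gap to the nearest library was divided by the range of the group and set against Dixon's 95% critical value. By chance a gap past this value happens in about 1 in 20 groups. Over all cells Rpl36al took 0.972% of ribosomal protein UMIs in HFHC 3, against 0.326% to 0.428% in the other HFHC libraries. That gap was 0.843 of the range, and 628 of the 857 cells of HFHC 3 are hepatocyte-like. Rps27 took 3.24% of these UMIs over all cells in control 3, against 2.24% to 2.35% in the other control libraries. Its gap was 0.885 of the range, and 556 of the 574 cells of control 3 are LSEC-like.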

How the results depend on the processing

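The all-cell difference in ribosomal protein percent (1.05 points) turned to -0.929 within the 5 barcode-sharing libraries and to -1.56 without HFHC 4, and lay between -1.56 and 2.87 over the libraries left out. The LSEC-like difference (10.3 points) was 8.58 as a mean over cells, 7.68 with libraries of at least 3 cells and 9.8 to 10.7 with a control left out; HFHC 4 cannot be left out. Against LSEC-like cells of the same library, vascular endothelial-like cells (-2.21) moved to -1.26 at 500 genes per cell, B-like cells (13.1) to 14.2 over nuclear genes and 12.4 as a mean over cells, hepatocyte-like cells (-1.55) to -1.25, -2.17 and -2.12 by these 3 choices, and lymphatic endothelial-like cells (1.01) to 1.74 as a mean over cells and 0.297 with 4 markers. Calls in LSEC-like cells (3) became 7 at 500 genes per cell, 0 without the filter on low counts, 56 in DESeq2 and 0 to 10 with a control left out, the 10 without control 3.

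Against hepatocyte-like cells on the scale of all genes, called members numbered 6 instead of 78 in B-like, 6 instead of 77 in T/NK-like and 13 instead of 50 in basophil- or mast-like cells (1 higher and 12 lower instead of 45 and 5) without the filter, and in neutrophil-like cells 0 were higher and 80 lower instead of 3 and 58. Basophil- or mast-like cells also gave 23 with all deposited cells, 23 in DESeq2 and 20 with its size factors. Of 1349 genes 372 were called higher and 568 lower there with all deposited cells. Of 1331 genes it was 371 and 521 in DESeq2 and 371 and 561 with its size factors. Relative to the ribosomal protein total, 500 genes per cell gave 26, 28 and 35 against 15, 16 and 22 in B-like, T/NK-like and basophil- or mast-like cells; at least 10 cells gave 26 in B-like and 40 in basophil- or mast-like cells; no filter gave 9, 10 and 12, and 9 against 28 in neutrophil-like cells, where DESeq2 gave 16. Over all genes, in the same order of classes, 500 genes per cell gave 276 higher and 824 lower of 1538, 283 and 822, and 382 and 729. At least 10 cells gave 254 and 805 of 1404 genes, and 357 and 717. No filter gave 581 and 1908 of 13872 genes, 708 and 2243, and 802 and 1304. In neutrophil-like cells no filter gave 709 and 65, and DESeq2 431 and 74 of 1331 genes. The cause of these changes was not tested. Single genes turned in the all-cell sums: Rpl10a to -0.03 in the 5 libraries, Rps27rt to 0.40, Rpl8 to 0.21 and Rpl9 to 0.56 in the other 3, and, without HFHC 2, Rpl8 to 0.02 and Rpl9 to 0.09, with leave-one-out ranges of -0.42 to 0.02 and -0.53 to 0.09. Rps27 in neutrophil-like cells turned to -0.67 without the filter on the scale of all genes. The 0 calls in the all-cell sums and in the relative LSEC-like comparison stayed 0 in every alternative run.

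Same-numbered libraries of the diets deviated together for some numbers only (r = 0.613, -0.333, -0.477 and 0.207 for numbers 1 to 4), so the numbers were not taken as pairs; with the replicate block the all-cell difference was 1.05 points (exact p = 0.75) and 0 members were called. Planned comparisons of classes with LSEC-like cells were not run in any alternative, and T/NK-like and neutrophil-like cells have no value at 10 cells. With 1 HFHC library of LSEC-like cells and 2 libraries behind the immune classes, the spread among mice limits every call.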

Other observations

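Within LSEC-like cells of HFHC 4, the 135 cells with a UMI of Esm1, a gene of activated capillary endothelium, gave 26.0% of their UMIs to ribosomal protein genes, and the 409 cells without one 21.8%. The median depth was 2153 UMIs in cells with Esm1 and 1426 UMIs in those without, and the share rose with depth in this library.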
